A study of Mus musculus with 4 samples.

Results

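The ligand-gated ion channels of neurotransmission are membrane proteins that open an ion pore when a transmitter binds to them. Their subunit genes were taken by symbol from the deposited gene lists and from the mouse annotation: the GABA-A receptor subunits (Gabr), the glycine receptor subunits (Glr), the ionotropic glutamate receptor subunits (Gria, Grik, Grin and Grid), the nicotinic acetylcholine receptor subunits (Chrn), the serotonin-gated channel subunits (Htr3) and the ATP-gated P2X receptors (P2rx). The symbols matched 67 annotated genes, all of them protein-coding, and 63 of these were in at least 1 complete gene list, out of 29652 genes in any complete list. The study made 1 single-cell RNA sequencing library at each of 2 ages of the mouse embryo (E15.5 and E13.5) and for each of 2 genotypes, from fetal pancreas of the C57BL/6 strain background that was labelled for the epithelial surface protein EpCAM and sorted. The KO libraries came from embryos with Pdx-Cre and the Setd2 f/f alleles, and the WT libraries from embryos with Setd2 f/f recorded as WT, so both genotypes carried the floxed alleles. The Pdx promoter is known to drive Cre in the pancreatic epithelium and the adjoining foregut, and not in the nerve or muscle cells of the organ. Setd2 is the enzyme behind trimethylation of histone H3 at lysine 36 (H3K36me3).

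What was deposited and used here is a list of genes for each library, with no count or level, so each gene is either listed or not listed. What a gene needed to be listed is not given in the sources used here. There were 25474 genes in the E15.5 KO list, 26341 in E13.5 KO and 25463 in E13.5 WT. For E15.5 WT the list breaks off after 167 complete entries, and 2 subunit genes, Glra1 and Gabra2, have identifiers within its reach. Each group is a single library, so nothing could be checked against replicates and no test was run. The depth of each library is unknown, a gene that is not listed can still have been present, and fewer cells of a type cannot be told apart from less RNA per cell. Markers of the labelled tissue were present: 12 of 12 markers of pancreatic progenitors, ducts and acini, Epcam and Cdh1 among them, and 14 of 14 endocrine markers were in each complete list. Genes used as markers of cells outside the epithelium were listed as well, but a listing does not show which cells carried the RNA. Neuronal markers numbered 13 of 15 in E15.5 KO, 15 of 15 in E13.5 KO and 15 of 15 in E13.5 WT. Neural crest and glial markers numbered 9, 10 and 10 of 10 in the same order, and skeletal muscle markers 7, 10 and 11 of 12. Of all annotated protein-coding genes, 76.2%, 78.1% and 77.9% were listed, again in this order.

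These receptors are built from several subunits around a central pore. GABA-A and glycine receptors carry chloride, nicotinic, serotonin-gated, glutamate-gated and P2X channels carry cations, and which subunits are present sets where a receptor sits and how it responds. In the adult pancreas, beta cells make and release GABA, islet cells carry GABA-A and glutamate receptors, and cholinergic nerves reach islets and acini through intrapancreatic ganglia.

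Of the 67 subunit genes, 54 were listed in E15.5 KO, 60 in E13.5 KO and 56 in E13.5 WT. In shares these were 80.6%, 89.6% and 83.6%, beside 76.2%, 78.1% and 77.9% of all 21951 annotated protein-coding genes. All 3 complete lists held 49 of the subunit genes (73.1%), the same share as among protein-coding genes (73.1%). The remainder was divided differently: 14 subunit genes (20.9%) were in some but not all of the complete lists, against 8.7% of protein-coding genes, and 4 (5.97%) were in none, against 18.2%. By transmitter, the share in all 3 complete lists ran from 1 of 5 glycine receptor genes to 7 of 7 P2X genes.

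**Figure D1:**
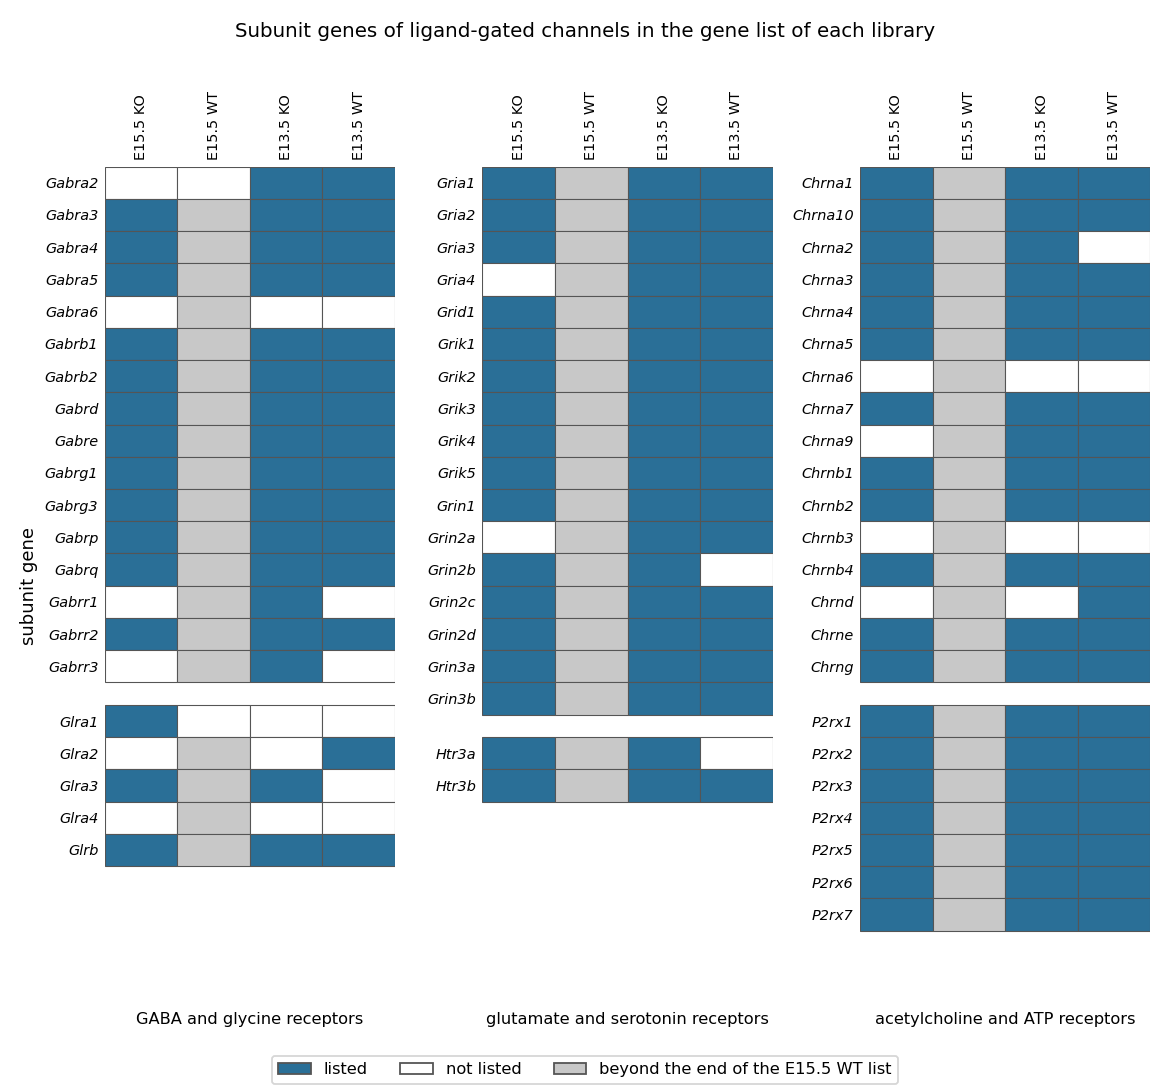
Each row is a named subunit gene and each column a library; blue means listed, white not listed, and grey a gene that the cut E15.5 WT list does not reach. Most rows are blue in the 3 complete lists, the P2X block is entirely blue there, and the glycine receptor alpha genes each show a pattern of their own.

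**Figure D2:**
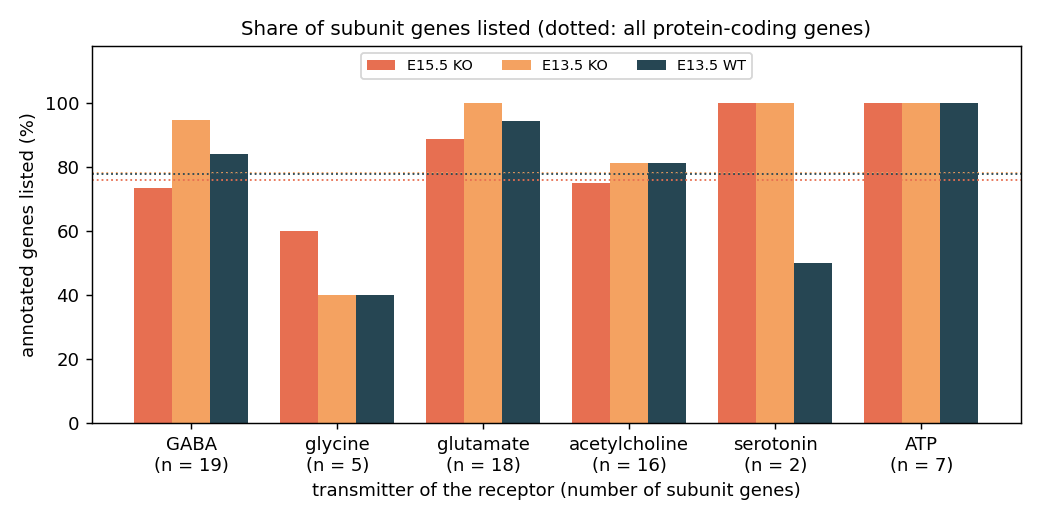
Bars give the percentage of annotated subunit genes listed in E15.5 KO, E13.5 KO and E13.5 WT for each transmitter; dotted lines give the same percentage over all protein-coding genes (76.2%, 78.1% and 77.9%). The glycine bars (60.0%, 40.0% and 40.0%) lie below the lines, and the glutamate bars (88.9%, 100% and 94.4%) above them.

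GABA-A receptors at synapses combine alpha, beta and gamma subunits, and delta replaces gamma in many receptors outside synapses. Of 19 GABA-A subunit genes, 14 were listed in E15.5 KO, 18 in E13.5 KO and 16 in E13.5 WT. The beta genes Gabrb1 and Gabrb2, the alpha genes Gabra3, Gabra4 and Gabra5, and the gamma genes Gabrg1 and Gabrg3 were in every complete list. So were Gabrd (delta), Gabre (epsilon), Gabrq (theta) and Gabrp, the pi subunit, which is known from epithelial tissues outside the brain. Gabra2 (chromosome 5, 70957597 to 71095849), an alpha subunit of the forebrain, was listed in E13.5 KO and E13.5 WT and not in E15.5 KO or E15.5 WT. Each complete list therefore held alpha, beta and gamma genes.

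The rho subunits form the GABA-gated channels best known from the retina. Gabrr2 was in all 3 complete lists. Gabrr1 (chromosome 4, 33132521 to 33163588) and Gabrr3 (chromosome 16, 59407332 to 59464504) were listed in E13.5 KO and in neither E15.5 KO nor E13.5 WT, so the 3 rho genes were together in 1 of the complete lists. Gabra6 (chromosome 11, 42306437 to 42321072), the alpha subunit of cerebellar granule cells, was in none of the 3 complete lists.

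Glycine receptors are made of alpha subunits, which bind glycine, and the beta subunit encoded by Glrb, which ties them to the scaffold protein gephyrin. Glrb and Gphn, the gephyrin gene, were in every complete list. The 4 alpha genes were each listed differently. Glra1 (chromosome 11, 55514238 to 55608198), the adult spinal subunit, was in E15.5 KO and not in E15.5 WT, E13.5 KO or E13.5 WT. Glra2 (X chromosome, 165129017 to 165327393), the fetal subunit, was in E13.5 WT and in neither KO list. Glra3 (chromosome 8, 55940460 to 56130070) was in E15.5 KO and E13.5 KO and not in E13.5 WT. Glra4 (X chromosome, 136757674 to 136780141) was in no complete list. Each complete list thus held an alpha gene beside Glrb: Glra1 and Glra3 in E15.5 KO, Glra3 in E13.5 KO and Glra2 in E13.5 WT.

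The alpha genes are close paralogs, and the stretch of coding exon in which Glra2, Glra3 and Glra4 together differ least from Glra1 is shown. A read from within such a stretch has to carry a difference of this kind to be assigned to a single gene. The stretches are 90 bases, lie in exon 7 of the longest coding transcript of each gene, and come from GENCODE M21 transcripts on GRCm38, the assembly that mm10 names. Capitals in the Glra1 line mark the 18 positions at which at least 1 of the other genes differs, and capitals in the other lines mark bases that differ from Glra1.
Glra1, chr11:55527345-55527434, minus strand: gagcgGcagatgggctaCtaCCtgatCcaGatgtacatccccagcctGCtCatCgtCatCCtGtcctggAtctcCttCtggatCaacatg
Glra2, chrX:165252310-165252399, minus strand: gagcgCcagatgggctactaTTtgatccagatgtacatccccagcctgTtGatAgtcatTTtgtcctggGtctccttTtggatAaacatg
Glra3, chr8:56089019-56089108, plus strand: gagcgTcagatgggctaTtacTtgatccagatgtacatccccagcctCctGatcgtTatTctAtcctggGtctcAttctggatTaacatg
Glra4, chrX:136767274-136767363, minus strand: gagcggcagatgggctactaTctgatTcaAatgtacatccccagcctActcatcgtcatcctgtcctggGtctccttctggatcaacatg
Within this stretch Glra2 and Glra3 differ from Glra1 at 11 of 90 bases each (87.8% identity) and Glra4 at 5 (94.4% identity). Over whole transcripts, the longest run of bases that any pair of glycine receptor genes shared was 26. The longest that any pair of all 67 genes shared was 87, between Gabra2 and Gria2, which belong to different families. The next was 81, between the rho genes Gabrr1 and Gabrr2. Gabra2 also shared runs with other genes outside its family, 73 bases with Gria4 and 59 with Chrnb3. Runs over whole transcripts need not lie in coding sequence. Reads were 150 bases long, per the labels' protocols.

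Ionotropic glutamate receptors fall into AMPA (Gria), kainate (Grik), NMDA (Grin) and delta (Grid) families. Of 18 genes, 16 were listed in E15.5 KO, 18 in E13.5 KO and 17 in E13.5 WT. The 5 kainate genes Grik1 to Grik5 and Grid1 of the delta family were in every complete list. Among AMPA subunits, which carry fast excitatory currents, Gria1, Gria2 and Gria3 were in every complete list, and Gria4 (chromosome 9, 4417896 to 4796234) was listed in E13.5 KO and E13.5 WT and not in E15.5 KO. Grin1, the subunit that every NMDA receptor needs, was in all 3, and so were Grin2c, Grin2d, Grin3a and Grin3b. The 2 NMDA genes that varied did so in different directions. Grin2a (chromosome 16, 9567898 to 9995560), the subunit that gains in the brain after birth, was listed in E13.5 KO and E13.5 WT and not in E15.5 KO. Grin2b (chromosome 6, 135713233 to 136173511), a predominant subunit of the embryonic brain, was listed in E15.5 KO and E13.5 KO and not in E13.5 WT.

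Nicotinic receptors of skeletal muscle and of neurons use different subunits. Of the 16 genes, 12 were listed in E15.5 KO, 13 in E13.5 KO and 13 in E13.5 WT. The 3 genes of the autonomic ganglion receptor, Chrna3, Chrna5 and Chrnb4, were in every complete list, as were Chrna7, Chrna4 and Chrnb2 of neurons. Chrna2 (chromosome 14, 66135039 to 66152948), a neuronal alpha subunit, was listed in E15.5 KO and E13.5 KO and not in E13.5 WT. Chrna6 (chromosome 8, 27403212 to 27413944) and Chrnb3 (chromosome 8, 27368711 to 27399730), which assemble together in dopamine and retinal neurons, were in none of the 3. The cochlear subunit gene Chrna9 (chromosome 5, 65934921 to 65977326) was listed in E13.5 KO and E13.5 WT and not in E15.5 KO, whereas its partner Chrna10 was in all 3.

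The fetal receptor of muscle combines Chrna1, Chrnb1, Chrnd and Chrng, and Chrne replaces Chrng after birth. Of these 5 genes, 4 were listed in E15.5 KO, 4 in E13.5 KO and 5 in E13.5 WT. Chrnd (chromosome 1, 87190607 to 87200070) was the member that differed: E13.5 WT listed it and the KO libraries did not. Among the 12 skeletal muscle markers, 7 were in every complete list: Acta1, Actc1, Myh3, Ckm, Ttn, Mymk and Des. Myf6 was, like Chrnd, in E13.5 WT and in neither KO list. Myod1, Myog and Myh8 were in E13.5 KO and E13.5 WT and not in E15.5 KO. Myf5 was in no complete list and was listed in E15.5 WT, whose cut list does not reach the other muscle markers. Within that reach, 1.74% of the genes listed in either E15.5 library were in E15.5 WT only. The part of muscle cells in the listing of Chrnd was not tested. Musk, the receptor kinase that gathers these channels under the nerve ending, was listed in E13.5 KO and in neither E15.5 KO nor E13.5 WT, while Rapsn, Agrn, Lrp4 and Dok7 of the same pathway were in every complete list.

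The promoters of Chrna1 and Chrng are shown because muscle transcription factors bind CAGCTG-type E-boxes. They were chosen after their motif counts were seen. Each is 300 bases, from 250 before to 50 after the RefSeq start (GRCm38.p6), and capitals mark CAGCTG, which reads the same on both strands.
Chrna1, chr2:73580289-73580588, minus strand: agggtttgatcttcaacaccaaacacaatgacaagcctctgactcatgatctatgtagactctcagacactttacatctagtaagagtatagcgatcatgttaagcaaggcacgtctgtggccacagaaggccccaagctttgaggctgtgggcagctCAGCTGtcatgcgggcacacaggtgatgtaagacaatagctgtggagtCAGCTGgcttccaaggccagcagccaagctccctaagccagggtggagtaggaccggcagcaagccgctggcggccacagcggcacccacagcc
Chrng, chr1:87205561-87205860, plus strand: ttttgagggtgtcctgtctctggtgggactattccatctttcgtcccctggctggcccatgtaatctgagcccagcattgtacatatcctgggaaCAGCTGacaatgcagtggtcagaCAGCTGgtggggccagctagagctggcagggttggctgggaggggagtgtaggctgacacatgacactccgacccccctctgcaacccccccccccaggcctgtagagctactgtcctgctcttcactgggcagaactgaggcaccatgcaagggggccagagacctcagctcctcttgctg
Each promoter holds 2 matches, and both genes were in all 3 complete lists. Of the other muscle subunit genes, Chrne holds 1 match and Chrnb1 holds 0, and no promoter was matched for Chrnd. RefSeq promoters were matched for 46 of the 67 genes (68.7%), and 8 of the 46 (17.4%) hold CAGCTG at least once, beside 16.1% of all 27025 promoters in the table, so the letters were about as frequent among the subunit genes as elsewhere.

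Serotonin-gated channels need the subunit encoded by Htr3a, and Htr3b joins it in a mixed receptor. Htr3b was in all 3 complete lists. Htr3a (chromosome 9, 48899213 to 48911099) was listed in E15.5 KO and E13.5 KO and not in E13.5 WT, so the WT list at E13.5 held the accessory subunit without the obligatory one. The 7 P2X genes, P2rx1 to P2rx7, were in every complete list. P2rx1 is best known from smooth muscle and platelets, P2rx2 and P2rx3 from sensory neurons, and P2rx4 and P2rx7 from epithelial and immune cells.

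At E13.5 the comparison sets the subunit genes listed in KO (Pdx-Cre with Setd2 f/f) beside those listed in WT (Setd2 f/f). Cre and the deletion of Setd2 go together in this design and cannot be told apart. Together the libraries listed 62 subunit genes. Both held 54 of them (87.1%), KO alone held 6 (9.68%) and WT alone 2 (3.23%), so 8 (12.9%) were in 1 library only, beside 6.08% of protein-coding genes. The 6 in KO only were Gabrr1, Gabrr3, Glra3, Grin2b, Chrna2 and Htr3a, from 5 transmitter classes, and the 2 in WT only were Glra2 and Chrnd. Among all protein-coding genes listed in either library, 3.17% were in KO only and 2.91% in WT only, and among all genes 9.72% and 6.61%. Of the 6 genes, Glra3, Grin2b, Chrna2 and Htr3a were in the E15.5 KO list as well, and neither Gabrr1 nor Gabrr3 was. Leaving out genes that overlap another annotated gene kept 31 of the 67 subunit genes. Of these, 2 were in KO only (Gabrr1 and Chrna2) and 2 in WT only. The shares over protein-coding genes were not computed under that setting, so these smaller counts have no share to set beside them. Neuronal and glial markers were all listed in both libraries at this age (15 of 15 and 10 of 10), so these lists cannot show a difference in such cells, and skeletal muscle markers numbered 10 in KO and 11 in WT of 12. The part of these cells was not tested.

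The comparison of E15.5 KO with E13.5 KO asks how the listed subunits changed with age under the deletion. Of 61 subunit genes found at one age or the other, 53 (86.9%) were at both, 1 (1.64%) was at E15.5 alone and 7 (11.5%) were at E13.5 alone, so 8 (13.1%) were in 1 library only, beside 7.57% of protein-coding genes. Glra1 was the gene at E15.5 only. Among the 7 at E13.5 only were Gabra2, Gabrr1, Gabrr3, Gria4, Grin2a and Chrna9. Among protein-coding genes 2.55% were in E15.5 KO alone and 5.03% in E13.5 KO alone, and among all genes 7.37% and 10.4%. Gabra2, Gria4, Grin2a and Chrna9 were in the E13.5 WT list too, so their listing at E13.5 did not rest on a single library. With overlapping genes left out, E15.5 KO alone held 0 and E13.5 KO alone 3. Markers of several other cell types were also fewer in E15.5 KO than in E13.5 KO: 13 against 15 of 15 for neurons, 9 against 10 of 10 for neural crest and glia, 7 against 10 of 12 for skeletal muscle, 4 against 6 of 6 for endothelium and 7 against 8 of 8 for immune cells. Markers of smooth muscle and mesenchyme were complete in both libraries (8 of 8). So were those of endocrine cells (14 of 14) and of pancreatic progenitors, ducts and acini (12 of 12). Among the markers listed in E13.5 KO and not in E15.5 KO were Dbh, Foxd3, Cdh5 and Tie1. Dbh was listed in E15.5 WT. Of the 172 genes within reach of that list and listed in either E15.5 library, 3 (1.74%) were in E15.5 WT only. With 1 library per group, age, genotype and depth cannot be told apart for Dbh. The part of any of these cell types in the listing of the subunits was not tested. The 2 comparisons share the E13.5 KO library.

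At E15.5 the genotypes and, in WT, the ages could be compared for 2 subunit genes. Glra1 was in the E15.5 KO list and not in the E15.5 WT list, and it was not in E13.5 WT either. Of the genes within reach of the E15.5 WT list and listed in either E15.5 library, 2.91% were in E15.5 KO only and 1.74% in E15.5 WT only. Gabra2 was in neither E15.5 list and was in the E13.5 WT list. Between the WT ages, 1.14% of the genes within this reach and listed at either age were in E15.5 WT alone. In E13.5 WT alone were 5.11%.

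Many of these genes lie near each other. Counting genes less than 1 Mb apart, 33 of the 67 fall into 13 clusters. In 9 of the clusters no other protein-coding gene lies between the subunit genes, while 52 lie between Chrnb1 and Chrne and 4 between P2rx1 and P2rx5. Of the 33 genes, 25 were in all 3 complete lists, as were 24 of the 34 genes outside clusters. Neighbours were not always listed alike. On chromosome 11, Gabrb2 was in all 3 lists and its neighbour Gabra6 in 0. In the chromosome 5 cluster Gabra2 was in 2 lists while Gabrg1, Gabra4 and Gabrb1 were in 3. Gabrg3 and Gabra5 on chromosome 7, the cluster of Gabre, Gabra3 and Gabrq on the X chromosome, and that of Chrna5, Chrna3 and Chrnb4 on chromosome 9 were in all 3 lists throughout. Of the smaller groups, Chrnb3 and Chrna6 on chromosome 8 were the pair missing from all 3 lists together. In the pairs of Chrnd with Chrng, Gabrr1 with Gabrr2 and Htr3a with Htr3b, the first gene was not in every complete list and its neighbour was.

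**Figure D3:**
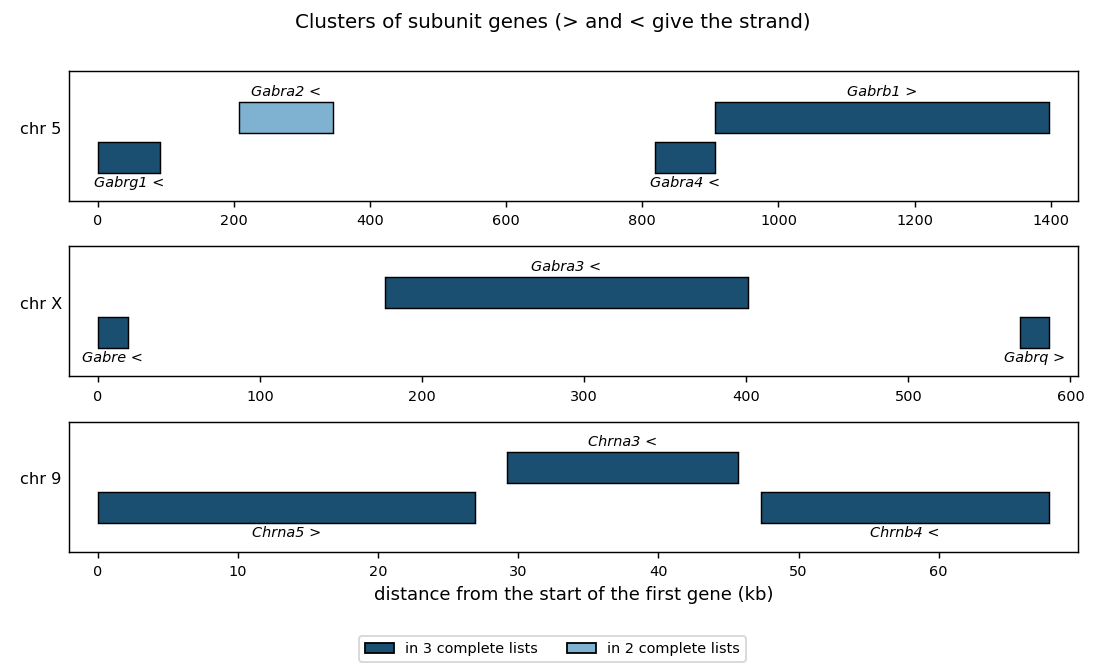
Boxes are subunit genes drawn to scale along 3 of the clusters, with distance in kb from the start of the first gene and shading by the number of complete lists that hold the gene. Gabra2 on chromosome 5 is lighter than its neighbours.

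The median gene span differed with listing, but the ranges overlapped and the order was not that of all protein-coding genes. The 14 subunit genes in some of the complete lists spanned a median of 92.3 kb (9.46 to 460 kb), the 49 in all 3 a median of 38.9 kb (3.40 to 1448 kb) and the 4 in none 18.6 kb (10.7 to 31.0 kb). For all protein-coding genes the medians were 10.8, 23.6 and 5.97 kb in the same order. The median of the largest number of exons in any transcript model of a gene was 10, 10 and 7.5. Another annotated gene overlapped 8 of the 14 (57.1%), in 0 cases a protein-coding one, and 36 of all 67 subunit genes (53.7%), which is a similar share. Whether counting used strand is not stated, so reads from such overlaps cannot be told apart from those of the subunit gene.

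The promoters of genes in all 3 complete lists covered a wide range of base composition. The ratio of observed to expected CpG dinucleotides ran from 0.00 in Gabra3 to 1.20 in Grin1. A comparison of this ratio between listed and missing genes is void, because fewer than 80% of the subunit genes had a promoter in the table. The promoters at either end of the range are shown, with CpG in capitals (GRCm38.p6, RefSeq; Gabra3 from the first start given).
Grin1, chr2:25319138-25319437, minus strand: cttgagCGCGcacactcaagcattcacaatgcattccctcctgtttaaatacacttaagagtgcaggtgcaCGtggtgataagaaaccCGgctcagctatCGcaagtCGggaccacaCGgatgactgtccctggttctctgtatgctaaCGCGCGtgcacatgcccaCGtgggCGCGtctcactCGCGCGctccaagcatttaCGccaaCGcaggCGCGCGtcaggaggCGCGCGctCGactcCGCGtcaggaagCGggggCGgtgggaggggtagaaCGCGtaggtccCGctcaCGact
Gabra3, chrX:72656870-72657169, minus strand: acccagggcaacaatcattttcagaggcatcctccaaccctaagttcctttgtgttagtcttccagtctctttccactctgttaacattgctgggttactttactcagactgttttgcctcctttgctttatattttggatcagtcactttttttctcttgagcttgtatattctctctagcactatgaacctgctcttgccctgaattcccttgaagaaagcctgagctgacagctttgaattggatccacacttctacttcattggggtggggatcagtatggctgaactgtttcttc
Grin1 has 33 CpG in 300 bases at a GC content of 60.7%, and Gabra3 has 0 at 43.0%, and both genes were in all 3 complete lists.

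The rest of each transmitter system was described with 3 lists chosen by function. Of 35 metabotropic receptors for the same transmitters, which act through G proteins, 23 were listed in E15.5 KO, 29 in E13.5 KO and 25 in E13.5 WT. At E13.5, Grm7, Chrm4, Htr2b and Htr7 were in KO only and 0 were in WT only. Between the KO ages, Htr5a was at E15.5 only and 7 were at E13.5 only, namely Grm3, Grm7, Chrm2, Htr2a, Htr2b, Htr7 and P2ry10. Gabbr1 and Gabbr2, the metabotropic GABA receptor, were in every complete list. Chrm5, Htr1a, Htr1f, Htr4 and P2ry4 were in none.

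Genes that make, load, take up or break down the transmitters numbered 34 of 40 in E15.5 KO, 40 in E13.5 KO and 36 in E13.5 WT. Among the 4 in E13.5 KO and not in E13.5 WT were Gad2, which makes GABA, Slc6a5, the glycine transporter of inhibitory neurons, and Slc17a6, a vesicular glutamate transporter. Gad1, the other GABA-making enzyme, was in every complete list. Among the 6 listed in E13.5 KO and not in E15.5 KO were Slc32a1, Slc6a12, Slc17a6, Chat and Slc18a3. Chat makes acetylcholine and Slc18a3 loads it into vesicles, and Slc18a3 lies inside the span of Chat, so their reads may not be fully separable. The 8 serotonin genes, among them Tph1 and Tph2, which start serotonin synthesis, were complete in all 3.

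Auxiliary subunits, chaperones and scaffolds numbered 38 of 43 in E15.5 KO, 42 in E13.5 KO and 41 in E13.5 WT. At E13.5, Cacng2, an auxiliary subunit of AMPA receptors also called stargazin, and Musk were in KO only, and Cacng3 of the same family was in WT only. Cacng7, Cacng8, Shisa6 and Musk were in E13.5 KO and not in E15.5 KO, the first 3 of them partners of AMPA receptors. Taking the subunit genes and the 3 lists together, 16 of 174 genes were in E13.5 KO only (9.20%) and 3 in E13.5 WT only (1.72%). Between the KO ages, 2 of 173 were in E15.5 KO alone (1.16%) and 24 in E13.5 KO alone (13.9%). The shares over all protein-coding genes given above are 3.17% and 2.91% for genotype and 2.55% and 5.03% for age. These lists share function and were chosen with earlier results of these data known, and their sums were not tested.

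**Figure D4:**
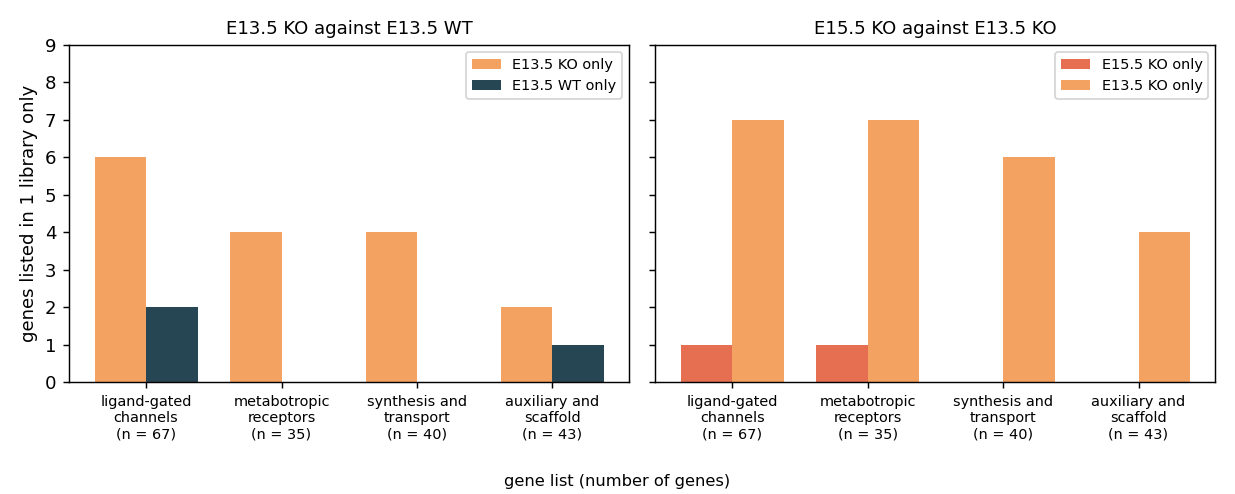
Bars count the genes of each list that were in 1 of the libraries compared and not in the other, for E13.5 KO against E13.5 WT (left) and E15.5 KO against E13.5 KO (right). In each of the 4 lists more genes were in E13.5 KO only than in the other library only. E13.5 KO is the longest list and enters both panels. Of protein-coding genes listed in either library, 3.17% were in E13.5 KO only and 2.91% in E13.5 WT only. Between the KO ages these shares were 5.03% in E13.5 KO only and 2.55% in E15.5 KO only. The ligand-gated channels had 6 against 2 and 7 against 1. Among the 31 channel genes that overlap no other gene these were 2 against 2 and 3 against 0.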

How the data were processed

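The labels describe single-cell RNA sequencing of EpCAM-labelled, sorted cells of fetal pancreas, with 1 library in each of 4 groups taken from the sample titles. The files deposited by the authors hold gene identifiers and symbols and no other values. The submitters' processing notes name Seurat and mm10; no aligner, annotation release or filter is given in the sources used here.

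Subunit genes were found by symbol and matched to GENCODE M21 (GRCm38) by identifier, without mismatch. Listing was compared as sets in Python 3.11.15, beside all genes and protein-coding genes listed in either library; this was tested on simulated lists. No test was run, since each group has 1 library and no counts. The E15.5 WT list was used up to its last complete entry. Subunit genes are named, apart from some that are not reported here by name and stay in the counts; other genes are named where they differ or give context. The members and lists were chosen with earlier results of these data known. Promoters came from RefSeq (GRCm38.p6), the first start per gene. The planned search for the RE1 motif and the planned protein sequences are not reported here. Alternatives were matching by identifier, merged symbol suffixes, protein-coding genes, the stretch of the cut list, and genes without overlap.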

Additional observations from a re-analysis of the deposited data

How the results depend on the processing

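Matching by Ensembl identifier, counting symbols with an appended number under the plain symbol, and keeping protein-coding genes changed 0 of the 10 counts. Without the 36 subunit genes that overlap another annotated gene, 31 remained, of which 23 were listed in E15.5 KO, 26 in E13.5 KO and 26 in E13.5 WT, with 22 in all 3 complete lists, 6 in some and 3 in none. The E13.5 comparison then had 2 in KO only and 2 in WT only, and the KO ages 0 in E15.5 KO alone and 3 in E13.5 KO alone. Within the stretch of the cut list, 1 subunit gene was listed in each of E15.5 KO, E13.5 KO and E13.5 WT. There 0 were in KO only, 0 in WT only, 1 in E15.5 KO alone and 1 in E13.5 KO alone, with 0 in all 3 lists, 2 in some and 0 in none. Fewer genes enter under both settings. Leaving out overlapping genes removed 4 of the 6 genes in KO only and 0 of the 2 in WT only, and the cause was not tested. Over all genes in place of protein-coding ones, the share listed in 1 library only was 16.3% in place of 6.08% between genotypes and 17.8% in place of 7.57% between KO ages. No paired analysis was possible because there is a single library per group. Alternatives that need counts were not run. Depth is unknown for every list.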
